A study of Mus musculus with 6 samples.

Results

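The 10 genes described here encode matricellular proteins: the thrombospondins Thbs1, Thbs2, Thbs3 and Thbs4, tenascin C (Tnc), periostin (Postn), Sparc (osteonectin), osteopontin (Spp1), Smoc2 and Tgfbi. They were found by gene name among 34797 names on the array, and 13 of its 55681 probes read them, 2 each for Thbs3, Tnc and Sparc and 1 each for the other 7. Smoc2 and Tgfbi were chosen on the readout itself, because they had been seen to rise in the knockouts, so their changes against WT are given as a description, without a test. RNA of immortalized murine embryonic fibroblasts (MEF) was hybridized with 1 dye to 6 arrays, 2 per group from separate samples. WT MEF carry the strain label W4, MEF without TIA1 (TIA1 KO) BALB/c, and MEF without TIAR, the product of Tial1 (TIAR KO), C57BL/6. The groups thus differ in strain and cells as well as in genotype, and on the shared slide the TIA1 KO pair had a row to itself. Genotype, strain, line and, for TIA1 KO, slide row cannot be told apart.

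Matricellular proteins are secreted into the extracellular matrix but, unlike collagens, do little to build it. They bind matrix fibres, growth factors, proteases and cell surface receptors such as integrins, and so tune how a cell attaches, moves and responds. In fibroblasts many of them are made in development, wound healing and fibrosis. TIA1 and TIAR are RNA-binding proteins that act in splicing and in the control of mRNA translation and stability.

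Levels are normalized intensities on a log2 scale, where a step of 1 is a 2-fold change, and each gene was read from its brightest probe. A probe was called when its limma p, adjusted over all 55681 probes, was under 0.05 and its fold change above 2. Spots were brighter in TIA1 KO, with array medians of 458.1 and 217.6 before normalization, than in WT (151.8 and 140.4) or TIAR KO (136.2 and 119.5). The scanner software rated 23569 and 26295 probes well above background in WT, 16021 and 19996 in TIA1 KO, and 24796 and 26011 in TIAR KO. Negative controls were also brighter on the TIA1 KO arrays, with medians of 195.7 and 118.9. They were 112 and 102.7 in WT, and 96.74 and 88.55 in TIAR KO. Fewer probes were thus rated well above background on the TIA1 KO arrays.

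RefSeq holds a promoter for 8 of the 10 genes (build GRCm38.p6), of which those of Thbs2, Tgfbi and Spp1 are shown because these genes had the largest fitted changes among the 8. Each run is the 250 bases before the annotated start, in the direction of the gene. Capitals mark a TATA box (TATAAA), a GC box (GGGCGG) or a CCAAT box (CCAAT), and no other motif is marked. In all, 8 motifs were searched on both strands, the others being TGACTCA (the AP-1 site), CAGACA, GTCTAGAC (a palindromic SMAD site), CACGTG (an E-box) and AGCCAATC, a longer CCAAT box that contains CCAAT. The 3 marked motifs were picked after the matches of all 8 had been seen, when the window was also shortened from 300 to 250 bases to leave out transcribed sequence. The 3 marked motifs do not overlap each other in the runs shown.

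Thbs2, chr17:14694263-14694512, minus strand: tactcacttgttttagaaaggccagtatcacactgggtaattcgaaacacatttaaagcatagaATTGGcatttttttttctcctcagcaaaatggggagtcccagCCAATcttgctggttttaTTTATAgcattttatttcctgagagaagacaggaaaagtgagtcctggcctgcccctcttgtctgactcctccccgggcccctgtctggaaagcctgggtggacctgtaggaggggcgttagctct

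Tgfbi, chr13:56609336-56609585, plus strand: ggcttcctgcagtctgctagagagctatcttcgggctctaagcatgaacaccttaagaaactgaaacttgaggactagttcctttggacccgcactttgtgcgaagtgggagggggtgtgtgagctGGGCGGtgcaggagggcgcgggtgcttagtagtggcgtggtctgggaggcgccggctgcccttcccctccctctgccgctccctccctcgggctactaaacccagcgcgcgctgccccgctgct

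Spp1, chr5:104434861-104435110, plus strand, the upstream of 2 entries: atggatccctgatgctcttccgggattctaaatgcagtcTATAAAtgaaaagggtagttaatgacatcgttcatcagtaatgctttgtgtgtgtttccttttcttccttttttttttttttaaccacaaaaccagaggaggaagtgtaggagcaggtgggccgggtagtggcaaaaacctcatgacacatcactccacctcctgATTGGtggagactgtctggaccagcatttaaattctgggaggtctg

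The Thbs2 run holds a TATA box on the opposite strand and a CCAAT box on each strand, the Tgfbi run a GC box, and the Spp1 run a TATA box and an opposite CCAAT box. Neither TATA box lies near the start: they begin 126 and 211 bases before it. Of 32851 promoters in the RefSeq table, 12.4% hold TATAAA, 32.7% GGGCGG, 33.8% CCAAT, 4.46% TGACTCA, 17.1% CAGACA, 0.167% GTCTAGAC, 6.02% CACGTG and 3.62% AGCCAATC. CAGACA was in 5 of the 11 entries of the 8 genes, among them the upstream entry of Spp1 and that of Thbs2. AGCCAATC was in that of Thbs2 alone, and TGACTCA, GTCTAGAC and CACGTG were in none. These matches describe the letters only, and no binding was measured.

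The genes that had been knocked out were read first. Tia1 was at 10.72 and 8.54 in WT, 7.84 and 8.45 in TIA1 KO, and 9.56 and 9.58 in TIAR KO cells. Its log2 fold change in TIA1 KO cells was -1.49 ± 0.79 (SE, n = 2 arrays per group; adjusted p = 0.283, limma). The other Tia1 probes were not called either, at -1.63 (adjusted p = 0.118) and 0.87 (adjusted p = 0.147), the last not well above background in WT. Tial1 was at 11.71 and 11.09 in WT and 10.00 and 9.65 in TIAR KO cells on its second probe, a fall of 1.58 ± 0.26 (adjusted p = 0.0248). On its brightest probe, which lost a WT spot as an outlier, Tial1 read -2.63 ± 0.86 (adjusted p = 0.196). Whether these probes lie in the deleted parts of the genes is not given in the sources used here. Gapdh, a glycolytic enzyme used as a control, stood between 18.47 and 18.74 on the 6 arrays.

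**Figure D1:**
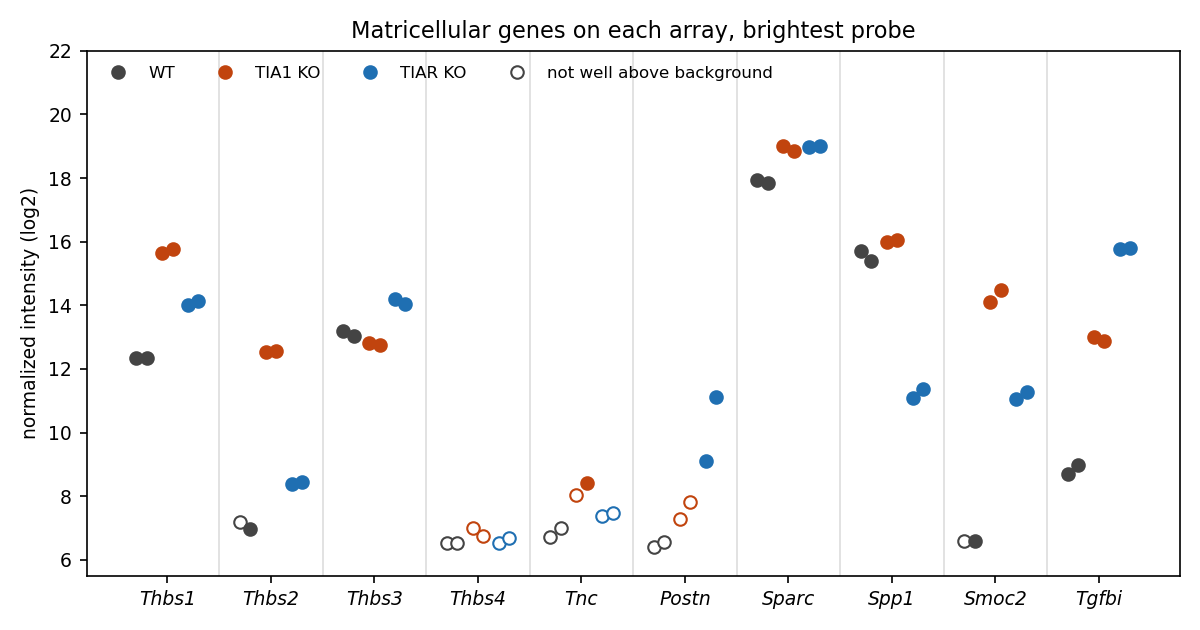
Normalized intensity (log2) of the 10 matricellular genes on each of the 6 arrays, brightest probe per gene, with open circles where the scanner software did not rate the probe well above background. Smoc2 and Tgfbi are lowest in WT, Spp1 is low in TIAR KO, and Thbs4 is near background on all 6 arrays; heights of different genes cannot be compared.

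Smoc2 is a calcium-binding matrix protein of the Sparc family. Its probe lies at chr17:14541664-14541723 (mm9). Smoc2 was at 6.59 on both WT arrays, 14.10 and 14.49 in TIA1 KO, and 11.05 and 11.27 in TIAR KO cells. Every knockout array was above the WT arrays, a rise for which Smoc2 had been chosen, and the knockouts did not overlap each other. How many of all probes separate in this way was not counted. The difference from WT was 7.71 in TIA1 KO and 4.57 in TIAR KO cells on the log2 scale, with only 1 of the 2 WT arrays rated well above background, so the size is uncertain. Over the scalings tried it ran from 6.35 to 9.98 in TIA1 KO and from 3.97 to 6.39 in TIAR KO cells. In the authors' log2 table Smoc2 was at 7.14 and 7.28, 14.33 and 14.61, and 11.16 and 11.37 in the same order.

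Tgfbi is a secreted adhesion protein that binds integrins and collagens and is induced by TGF-beta. The probe, at chr13:56740460-56740519 (mm9), read 8.69 and 8.97 in WT, 13.01 and 12.88 in TIA1 KO, and 15.75 and 15.81 in TIAR KO cells. All 6 arrays were well above background and the 3 groups stood apart, a separation that was not counted over all probes. Against WT, Tgfbi was 4.12 higher in TIA1 KO and 6.95 higher in TIAR KO cells. Over the scalings tried the difference ran from 2.69 to 4.22 in TIA1 KO and from 6.62 to 7.13 in TIAR KO cells. The order of the knockouts was thus the reverse of that of Smoc2.

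Of the other 8 genes, 2 were called higher and none lower in TIA1 KO cells, where 2.18% of all probes were called higher and 1.33% lower. In TIAR KO cells 5 of the 8 were called higher and 1 lower, beside 3.40% of all probes called higher and 2.38% lower. Among probes well above background in a group of the comparison, the shares called higher were 4.3% in TIA1 KO and 7.5% in TIAR KO cells. As a median over the 8 genes the log2 fold change was 1.05 in each knockout, and over all probes -0.10 and -0.02. In TIA1 KO cells the median over the 8 was 0.36 under common-median scaling, 3.095 on the scanner software's processed intensities and 0.57 with all probes of a gene averaged. Both comparisons share the WT arrays, and in bulk RNA more cells of a type cannot be told apart from more RNA per cell.

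The calls in TIA1 KO cells depended on the WT arrays: without either WT array limma called 0 of the 8 genes, and 0 of all probes, although 4 of the 8 then had an unadjusted p under 0.05. In TIAR KO cells 2 or 3 of the 8 were called higher when any 1 of the 4 arrays was left out, and 1 lower. After scaling the arrays to a common median in place of quantile normalization, the median of all probes moved to -0.67 in TIA1 KO cells. There 3 of the 8 genes were called higher and 1, Thbs3, lower. In TIA1 KO cells the share called lower was then smaller among the 8 genes than among all probes, and the share called higher was larger. In TIAR KO cells, 3 were then higher and 1 lower.

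**Figure D2:**
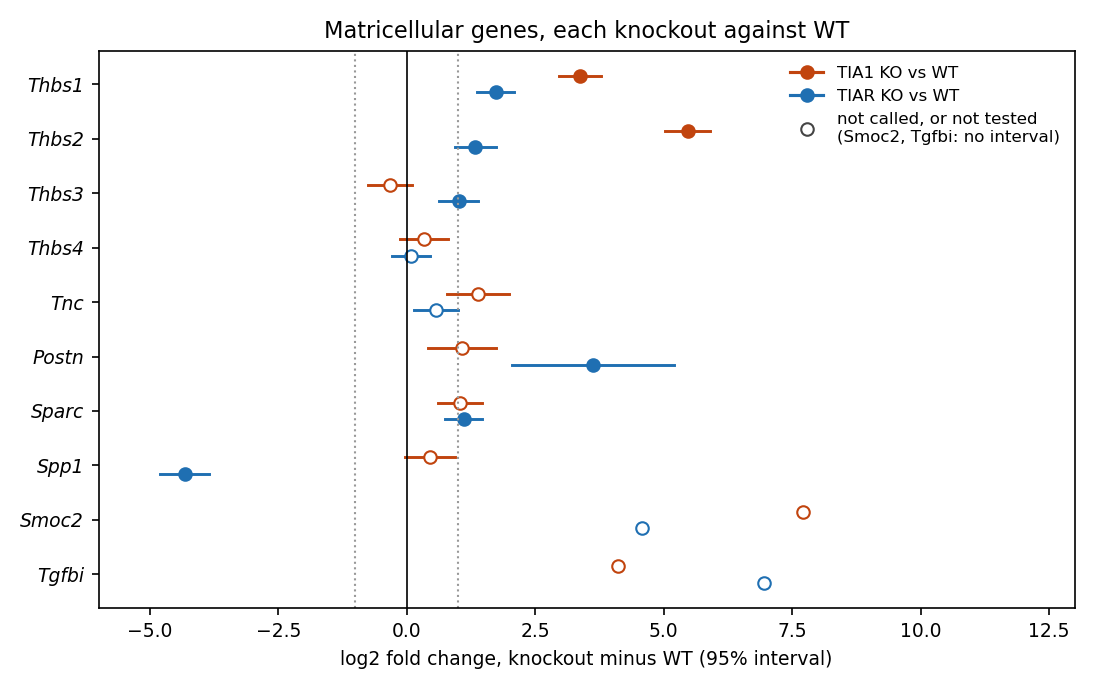
Log2 fold change of each gene in TIA1 KO and TIAR KO cells against WT, brightest probe, with 95% intervals from limma and dotted lines at a 2-fold change; filled circles were called. Thbs1 and Thbs2 are to the right of the dotted line in both knockouts and Spp1 is far to the left in TIAR KO cells alone; Smoc2 and Tgfbi have no interval because they were chosen for their rise. Under common-median scaling Sparc and Spp1 in TIA1 KO cells fall to the left of 0, as does Sparc in both knockouts with its probes averaged.

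The thrombospondins are calcium-binding glycoproteins, of which Thbs1 and Thbs2 inhibit angiogenesis and Thbs1 can activate latent TGF-beta. Thbs1, read at chr2:117952585-117952644 (mm9), was at 12.34 on both WT arrays, 15.65 and 15.77 in TIA1 KO, and 14.02 and 14.13 in TIAR KO cells. It rose by 3.37 ± 0.15 in TIA1 KO (adjusted p = 0.00602) and by 1.73 ± 0.14 in TIAR KO cells (adjusted p = 0.0027). In TIA1 KO cells the rise was 1.80 under common-median scaling, and it was not called on the processed intensities (adjusted p = 0.0587).

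Thbs2 has the same domain structure as Thbs1. Its probe, which spans chr17:14804526-14805789 (mm9), read 7.20 and 6.97 in WT, 12.54 and 12.56 in TIA1 KO, and 8.39 and 8.44 in TIAR KO cells. It rose by 5.46 ± 0.16 in TIA1 KO (adjusted p = 0.00393) and by 1.33 ± 0.16 in TIAR KO cells (adjusted p = 0.00838). Only 1 of the 2 WT arrays rated it well above background, so the size is uncertain. Over the scalings tried the rise ran from 4.48 to 7.24 in TIA1 KO and from 1.01 to 2.18 in TIAR KO cells. In TIA1 KO cells Thbs2 was not called on the processed intensities. The Thbs2 and Smoc2 probes lie 263 kb apart on chromosome 17, and both read higher in TIA1 KO than in TIAR KO cells.

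Thbs3, a pentameric thrombospondin, was not called in TIA1 KO cells. It was at 13.19 and 13.03 in WT, 12.81 and 12.76 in TIA1 KO, and 14.19 and 14.05 in TIAR KO cells (chr3:89030667-89030726, mm9). In TIAR KO cells Thbs3 rose by 1.01 ± 0.15 (adjusted p = 0.02), just past the 2-fold threshold, and its second probe rose by 1.48 ± 0.19 (adjusted p = 0.0113). The call of the brightest probe was lost under 8 of 16 alternatives, among them the authors' table (0.96) and common-median scaling (0.57). In TIA1 KO cells the 2 probes gave -0.32 ± 0.16 (adjusted p = 0.252) and 0.43 ± 0.19 (adjusted p = 0.219), and under common-median scaling the first gave -1.91 (adjusted p = 0.000807). Thbs4, a thrombospondin of tendon and muscle, was between 6.53 and 7.00 on all 6 arrays and on none was it well above background.

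Sparc binds collagen and takes part in its assembly into fibrils. It read 17.93 and 17.85 in WT, 18.99 and 18.86 in TIA1 KO, and 18.98 and 19.01 in TIAR KO cells (chr11:55208939-55208998, mm9). Both WT arrays were below all 4 knockout arrays, a separation that was not counted over all probes. The rise of 1.10 ± 0.14 in TIAR KO cells was called (adjusted p = 0.0117), but not on the processed intensities, under common-median scaling, or without WT replicate 2 or either TIAR KO array. In TIA1 KO cells a value of 1.03 ± 0.15 missed the threshold (adjusted p = 0.0547). It was called with all 3 groups in 1 fit (adjusted p = 0.0161), with an intensity trend, with dim probes removed and without TIA1 KO replicate 2, and under common-median scaling it was -0.44. A second Sparc probe (chr11:55208003-55208061, mm9) had 1 WT value left, 10.09, against 13.62 and 12.16 in TIA1 KO and 11.66 and 13.01 in TIAR KO cells, and was called in neither. With both probes averaged, the missing WT value left only the bright probe on that array, and the Sparc differences became -0.046 in TIA1 KO and -0.29 in TIAR KO cells, neither called.

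Spp1 is a phosphorylated ligand of integrins and Cd44 that is made by osteoblasts and macrophages and by many cultured fibroblasts. Under the main processing it was the only one of the 10 genes called lower in a knockout than in WT. Spp1 was at 15.71 and 15.40 in WT, 15.98 and 16.04 in TIA1 KO, and 11.09 and 11.38 in TIAR KO cells (chr5:104868502-104868561, mm9). It fell by 4.32 ± 0.19 in TIAR KO cells, or 19.99-fold (adjusted p = 0.000411). In TIA1 KO cells it read 0.45 ± 0.18 (adjusted p = 0.198), and -1.05 under common-median scaling (adjusted p = 0.0889).

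Postn binds integrins and promotes cross-linking of collagen. Its probe (chr3:54194840-54194899, mm9) read 6.41 and 6.54 in WT and 7.27 and 7.83 in TIA1 KO cells, none of them well above background, and 9.11 and 11.10 in TIAR KO cells. The TIAR KO arrays thus lay above the rest but well apart from each other. Postn was at least 9.3-fold higher in TIAR KO than in WT MEF (adjusted p = 0.029, limma). This approximate lower limit puts each WT value at the dimmest signal rated well above background on that array, unless the probe itself was brighter. Some probes above that signal were not rated so: on WT replicate 2 it was 6.59, and Tnc stood at 7.00. Other folds given as at least a value were set in the same way and are as approximate. The Postn limit fell to 4.66-fold without TIAR KO replicate 2 and was 18.6-fold without replicate 1. The call was lost without either WT array, with adjusted p of 0.083 and 0.0728. Tnc, a hexameric glycoprotein that weakens adhesion to fibronectin, was well above background on 1 array only. Tnc read 6.70 and 7.00 in WT, 8.04 and 8.43 in TIA1 KO, and 7.37 and 7.46 in TIAR KO cells (chr4:63674248-63675011, mm9). Its adjusted p was 0.0624 in TIA1 KO and 0.136 in TIAR KO cells; in TIA1 KO cells it was called without loess, under common-median scaling, with all 3 groups in 1 fit and without either TIA1 KO array, and its second probe (chr4:63643728-63643787, mm9) was not well above background on any array.

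The knockouts were then compared with each other. This contrast did not enter the choice of Smoc2 and Tgfbi directly but shares their knockout arrays, so their p-values here are not free of that choice. Of the other 8 genes, 1 was called higher and 3 lower in TIAR KO than in TIA1 KO cells, beside 1.68% of all probes called higher and 1.63% lower. Over all 10 genes the counts were 2 and 4. With replicate number as a block limma called 0 members. On the processed intensities Tgfbi, Thbs3 and Thbs1 were not called. Tgfbi was higher in TIAR KO cells by 2.84 ± 0.16 (adjusted p = 0.00907) and Thbs3 by 1.33 ± 0.16 (adjusted p = 0.0361). The second Thbs3 probe was not called, at 1.05 ± 0.23 (adjusted p = 0.107), and in the authors' table the first was not (adjusted p = 0.0531). Spp1 gave -4.77 ± 0.18 (adjusted p = 0.0059), Thbs2 -4.13 ± 0.15 (adjusted p = 0.0059), Smoc2 -3.14 ± 0.21 (adjusted p = 0.0126) and Thbs1 -1.64 ± 0.16 (adjusted p = 0.0251), all lower in TIAR KO cells. Under common-median scaling Thbs1 read -0.53 (adjusted p = 0.397) and was not called. For Sparc the difference was 0.07, with a 95% interval from -0.35 to 0.49. Postn read 2.56 ± 0.73 (adjusted p = 0.159). Without either TIAR KO array limma called 0 of the 10 genes, and 0 of all probes, although 7 of the 10 then had an unadjusted p under 0.05.

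**Figure D3:**
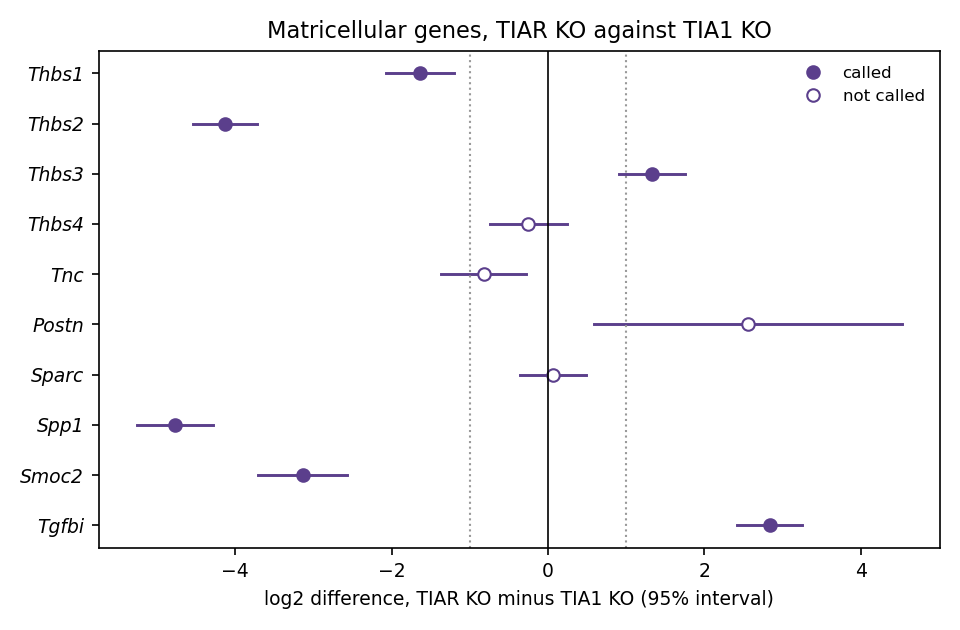
Log2 difference between TIAR KO and TIA1 KO cells for each gene, brightest probe, with 95% intervals from limma and dotted lines at a 2-fold change; filled circles were called. Tgfbi and Thbs3 lie to the right (higher in TIAR KO cells) and Thbs1, Thbs2, Spp1 and Smoc2 to the left; Thbs4 changes side under common-median scaling.

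The remaining matricellular genes on the array were counted in the same way. Of 25, 6 were called higher and none lower in TIA1 KO cells (median 0.54). In TIAR KO cells 7 were called higher and none lower (median 0.12). Of all probes, 2.18% were called higher and 1.33% lower in TIA1 KO cells, and 3.40% and 2.38% in TIAR KO cells. These shares also stand beside the counts of the lists and markers that follow. At an unadjusted p under 0.05, 10 and 9 were higher and 0 lower in either, beside 10.63% and 9.466% of all probes higher, and 15601 and 11229 of the 55681 probes under it in either direction. In TIA1 KO cells 0 of these genes, and 0 of the receptors, TGF-beta genes, collagen partners and proteases that follow, were called by limma on the scanner software's processed intensities or without either WT array. Wisp2, a CCN family protein, was at 6.70 and 6.66 in WT, 12.13 and 11.82 in TIA1 KO, and 12.01 and 12.08 in TIAR KO cells. It rose by 5.29 ± 0.18 (adjusted p = 0.00415) and 5.37 ± 0.14 (adjusted p = 0.000176), with 1 of the 2 WT arrays well above background. Fstl1, a secreted relative of Sparc, rose by 3.41 ± 0.15 without TIA1 and 2.18 ± 0.16 without TIAR. Ctgf, a CCN protein induced by TGF-beta, rose by 3.22 ± 0.22 and 1.56 ± 0.18. Under common-median scaling Fstl1 and Ctgf read 1.89 and 1.69 in TIA1 KO cells. Wisp1, another CCN protein, rose by 2.16 ± 0.15 and 1.91 ± 0.14, with 0.58 in TIA1 KO cells under common-median scaling. Sparcl1, the closest relative of Sparc, was at least 5.84-fold higher in TIA1 KO and 7.03-fold higher in TIAR KO cells. Only 1 of the 2 TIA1 KO arrays rated Sparcl1 well above background. Edil3, an integrin ligand, was at least 21.4-fold higher in TIA1 KO cells, at 10.99 and 11.63 against 6.42 and 6.29 in WT and 6.95 and 6.75 in TIAR KO cells.

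Receptors of these proteins, among them integrins, syndecans, Cd44 and Cd47, were called higher for 4 of 19 genes in TIA1 KO and 7 of 19 in TIAR KO cells, and lower for none. Unadjusted p-values under 0.05 were found for 2 lower receptors in TIA1 KO and 1 in TIAR KO cells. Itgb3, the integrin chain that pairs with Itgav to bind osteopontin and thrombospondin, was at 8.17 and 8.02 in WT, 13.05 and 13.29 in TIA1 KO, and 11.44 and 11.05 in TIAR KO cells. It rose by 5.08 ± 0.18 (adjusted p = 0.00416) and 3.15 ± 0.19 (adjusted p = 0.000968). Itgb5, another partner of Itgav, rose by 2.98 ± 0.15 and 1.84 ± 0.16, with 1.42 in TIA1 KO cells under common-median scaling. Lrp1, which takes up thrombospondins, and Sdc1 rose by 1.34 ± 0.17 and 1.34 ± 0.15 in TIA1 KO cells. Under common-median scaling they turned to -0.24 and -0.23 there, and 5 of the 19 receptors were called lower. That share is close to the share of all probes called lower under this scaling, so it is nothing particular to receptors. In TIAR KO cells Ptprz1, a tenascin-binding phosphatase, was at least 4.13-fold and Itga9 at least 3.19-fold higher.

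Of 17 genes for TGF-beta and its matrix regulators, 7 were called higher and 1 lower in TIA1 KO cells. In TIAR KO cells 4 were called higher and 3 lower. Of probes well above background in a group of the comparison, 4.3% were called higher and 3.17% lower in TIA1 KO cells. These shares were 7.5% and 5.26% in TIAR KO cells. The ligand Tgfb2 was at 8.14 and 8.23 in WT, 12.23 and 12.48 in TIA1 KO, and 12.66 and 12.44 in TIAR KO cells. Tgfb2 rose by 4.17 ± 0.17 and 4.36 ± 0.16, Tgfb3 by 3.94 ± 0.17 and 2.56 ± 0.17 in the knockouts. Ltbp4, a latent binding protein, had a mean of 10.06 in WT, 13.06 in TIA1 KO (adjusted p = 0.00659) and 13.85 in TIAR KO cells (adjusted p = 0.000335). Lrrc32, which anchors latent TGF-beta at the cell surface, rose by 7.98 ± 0.18 in TIA1 KO cells (adjusted p = 0.00389) and was at 7.45 and 7.54 in TIAR KO against 7.06 and 6.85 in WT MEF, of which 1 was well above background. Ltbp2 fell by 2.71 ± 0.36 in TIA1 KO (adjusted p = 0.0439) and by 3.11 ± 0.27 in TIAR KO cells. Under common-median scaling 4 of these genes were called higher and 3 lower in TIA1 KO cells, and 3 higher and 4 lower in TIAR KO cells. In TIA1 KO cells the share called lower was below that of all probes under this scaling.

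Collagens, fibronectin and other partners in the matrix were called higher for 12 of 13 genes in each knockout, with medians of 2.65 in TIA1 KO and 2.40 in TIAR KO cells, and Col5a2 was the exception in each. Col4a1, a basement membrane collagen, rose by 7.51 ± 0.18 and 6.97 ± 0.17, and Col3a1, a fibrillar collagen, by 6.32 ± 0.21 and 6.60 ± 0.49. Fbln2 rose by 5.28 ± 0.17 and Lox, the enzyme that cross-links collagen, by 4.34 ± 0.17 in TIA1 KO cells. Dcn, a proteoglycan on collagen fibrils, was at 6.56 and 6.62 in WT, 9.20 and 9.29 in TIA1 KO, and 15.67 and 15.82 in TIAR KO cells, a rise of 9.15 ± 0.15 in TIAR KO cells (adjusted p = 0.000165). Only 1 of the 2 WT arrays, and 1 of the TIA1 KO arrays, rated Dcn well above background. Col6a1 rose there by 3.73 ± 0.20. Under common-median scaling 8 of the 13 were still called higher in TIA1 KO cells and 11 in TIAR KO cells.

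Among 13 proteases that cleave matricellular proteins, 2 were called higher and 1 lower in TIA1 KO, and 5 higher and 1 lower in TIAR KO cells. Mmp2, a gelatinase, was at 11.82 and 11.99 in WT, 7.54 and 8.22 in TIA1 KO, and 7.87 and 8.06 in TIAR KO cells. Without TIA1 it was lower by at least 13.7-fold (adjusted p = 0.0131) and fell by 3.94 ± 0.16 in TIAR KO cells (adjusted p = 0.000348). Mmp14, its membrane-bound activator, rose by 1.89 ± 0.16 and 2.24 ± 0.15. Htra1 rose by 1.76 ± 0.22 in TIA1 KO cells, and in TIAR KO cells the collagenase Mmp13 was at least 9.73-fold higher and Adamts4 rose by 2.19 ± 0.14. Under common-median scaling Mmp14 and Htra1 read 0.39 and 0.22 in TIA1 KO cells, where 1 protease was then called higher and 2 lower. The share called lower there was below that of all probes under this scaling.

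**Figure D4:**
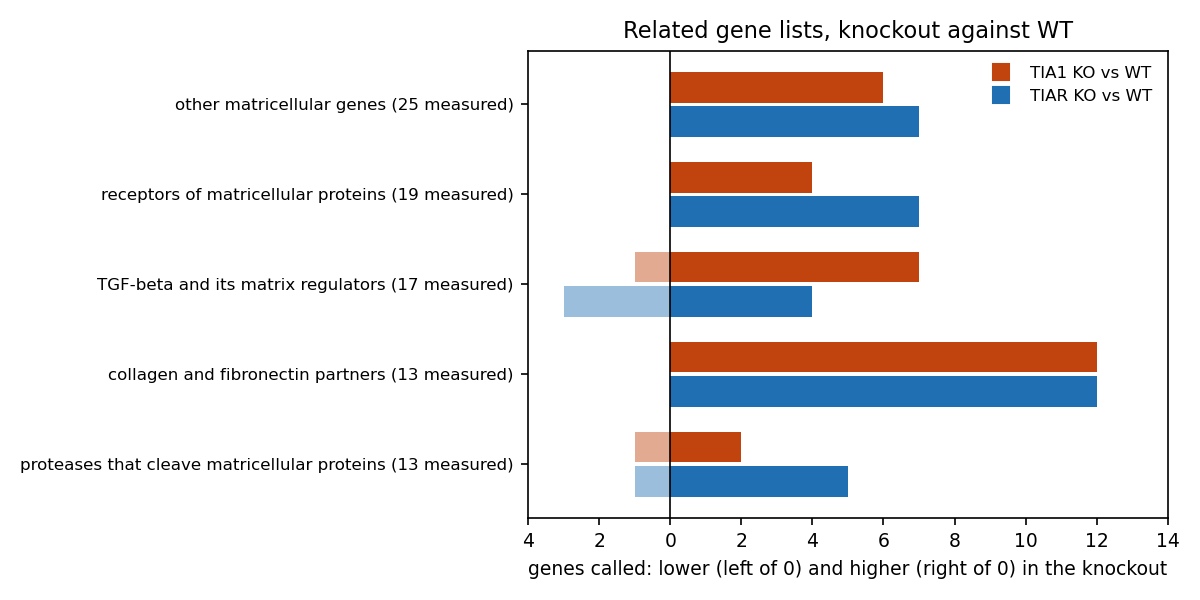
Number of genes called higher (right of 0) and lower (left of 0, paler) in TIA1 KO and TIAR KO cells against WT in 5 lists related to matricellular proteins, with the number measured in each list on the axis. The collagen and fibronectin partners reach 12 of 13 in both knockouts. Under common-median scaling 5 receptors and 3 TGF-beta genes were called lower in TIA1 KO cells, shares near and below that of all probes called lower.

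Markers of fibroblasts and of other cells that make matricellular proteins were read on the same arrays. Of 10 fibroblast markers, 8 and 9 were well above background on the WT arrays, 9 on each TIA1 KO array and all 10 on the TIAR KO arrays. Their summed level on the linear scale was 572300 and 604600 in WT, 1391000 and 1375000 in TIA1 KO, and 1417000 and 1438000 in TIAR KO cells, and the brightest probe, which is no measure of abundance between genes, was that of S100a4 in WT and of Col1a2 or S100a4 in the knockouts. The count called higher was 6 in TIA1 KO and 8 in TIAR KO cells, beside 2.18% and 3.40% of all probes. Pdgfra was at least 9.5-fold and 26.1-fold higher, Pdgfrb rose by 3.59 ± 0.35 and 3.81 ± 0.33, Fn1 rose by 2.74 ± 0.16 in TIA1 KO cells, and Thy1, well above background on 1 WT array, rose by 7.98 ± 0.18 in TIAR KO cells. Vim and S100a4 were called in neither knockout, and Col1a1, Col1a2, Col3a1 and Fn1 are also counted among the collagen partners. Under common-median scaling Col1a1 read 0.51 in TIA1 KO cells, below the 2-fold threshold, and Vim, S100a4, P4hb and Thy1, not called there, read -1.06, -1.43, -0.49 and -0.46. The part of fibroblast markers in the result was not tested.

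Smooth muscle markers were called in part. Acta2, the actin of contractile fibroblasts, was at 12.63 and 12.98 in WT, 17.58 and 17.73 in TIA1 KO, and 18.45 and 18.26 in TIAR KO cells. It rose by 4.85 ± 0.20 and 5.55 ± 0.19, and Tagln by 2.93 ± 0.20 and 3.45 ± 0.19. Under common-median scaling Acta2 read 3.29 and Tagln 1.35 in TIA1 KO cells. Myh11, which defines mature smooth muscle, was not well above background on any array. In all, 2 of 6 such markers were called higher in TIA1 KO and 4, with Cnn1 and Des, in TIAR KO cells. Their summed level was 35100 and 40290 in WT, 288100 and 320700 in TIA1 KO, and 501000 and 449000 in TIAR KO cells, with Smtn the brightest probe in WT and Acta2 in the knockouts. Their part in the result was not tested.

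Macrophages and osteoblasts are known sources of Spp1. The macrophage markers Cd68, Itgam and Cd14 were well above background on every array, and Csf1r on all but TIA1 KO replicate 1. Ptprc, Emr1, Lyz2 and Fcgr1 were so on none. Of 9 measured, Itgam and Tyrobp were called higher in TIA1 KO cells and Cd14 lower in TIAR KO cells. Under common-median scaling Itgam read 0.25 in TIA1 KO cells, below the 2-fold threshold. Their summed level was 11340 and 10640 in WT, 21640 and 19110 in TIA1 KO, and 10120 and 10040 in TIAR KO cells, with Cd14 the brightest probe in WT and Itgam in the knockouts. The osteoblast markers Sp7, Ibsp and Dmp1 were not well above background on any array. Of 8 such markers Alpl was called higher in both knockouts, at least 3.21-fold and 4.54-fold, and Phex lower in TIA1 KO cells, at least 3.27-fold. The osteoblast sum was 2464 and 2286 in WT, 1408 and 2025 in TIA1 KO, and 2621 and 2744 in TIAR KO cells, with between 1 and 4 of the 8 genes well above background on an array, and Phex was the brightest probe on the WT arrays. The part of either cell type in the Spp1 values was not tested.

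Markers of chondrocytes, tendon, epithelium and endothelium were also counted. Of 8 chondrocyte markers Col2a1 was called, at least 30.3-fold higher in TIA1 KO cells, at 11.92 and 12.03 against 7.10 and 6.93 in WT and 7.94 and 8.06 in TIAR KO cells. Hapln1 and Matn1, further markers of cartilage, were not well above background on any array. Of 4 tendon markers Scx and Fmod rose, by 1.16 ± 0.15 and 5.94 ± 0.18, and Mkx fell by 1.67 ± 0.15 in TIAR KO cells, with Fmod well above background on 1 WT array, and Tnmd was not well above background on any array. Of 6 epithelial markers Krt8 was called higher in both knockouts (0.41 in TIA1 KO cells under common-median scaling), and Cdh1 and Krt18 in TIAR KO cells. No endothelial marker of 6 was called by limma, with 1 and 2 at an unadjusted p under 0.05. The summed levels ran from 1570 to 5479 for chondrocyte and 31220 to 80670 for tendon markers. They ran from 1074 to 2533 for epithelial and 3203 to 4069 for endothelial markers. These sums include probes not well above background. Scx was the brightest probe of the tendon list and Kdr of the endothelial list on every array. Col2a1 was the brightest chondrocyte probe in TIA1 KO cells and Sox9 in the others. The part of these markers in the result was not tested.

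For each matricellular gene above background, the genes of most similar pattern were sought among 25309 probes, by the root mean square (RMS) difference of log2 values centred on their own mean over the 6 arrays. The 6 points are 3 pairs of arrays from the same cells, so the measure is a description. Thbs1 was closest to Zfp618 (RMS 0.12) and Fam132b, Thbs2 to Igfbp5 (0.16) and Col2a1 (0.21), and Smoc2 to Inhbb (0.13) and Ccdc80 (0.40). Tgfbi was closest to Aplp1 (0.21) and Kctd15 (0.24), and Postn to Serpine2 (0.43) and Rasl11a (0.45). Sparc and Thbs3, which varied less, had close neighbours in Zdhhc16 and Aes, and in Micalcl and a lincRNA region of chromosome 17. Spp1 was closest to 1110021L09Rik (0.21) and Gm5067 (0.31).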

How the data were processed

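The authors deposited, for each array, scanner intensities per spot (Agilent Feature Extraction, 1 colour, positions on mm9), not normalized between arrays, and a table of log2 values that they had corrected by normexp, adjusted by loess and quantile normalized. The submitters' processing notes name limma. The log2 values reported here were computed from the mean and local background intensities: normexp with an offset of 50, log2, 1 pass of loess against the mean array, and quantile normalization. Control and outlier spots were left out, spots of a probe were averaged, and no dim probe was removed. Well above background means rated so on 50% or more of a probe's spots. The correlation with the authors' log2 table was between 0.9975 and 0.9995 on each array. The test was limma's moderated linear model (lmFit, eBayes) of the 4 arrays of a comparison with no covariate, and p-values were adjusted by Benjamini-Hochberg over 55681 probes. The study names 2 biological samples per group, and their number limits the precision of every value. The fits were tested on simulated data.

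The members and lists were chosen with earlier results of these data known. Genes were named by rule: the 10 members, Tia1, Tial1 and Gapdh, all called genes of a list if at most 4 and otherwise the 4 with the largest change in each comparison with WT that were well above background in the higher group, and the 2 genes closest in pattern to each member. The values of 1 gene counted in the lists are not reported here. All 13 member probes matched their RefSeq symbol through their accession. The table of GRCm38.p6 gave names and promoters only. As alternatives the fits were repeated on intensities processed by the scanner software (scaled to the 75th percentile) and with a normexp offset of 16, no loess, scaling to a common array median, the authors' log2 table, a filter on dim probes, outlier spots kept, all probes of a gene averaged, all 3 groups in 1 fit, an intensity trend, a replicate block, and each array left out in turn, where a lone array was assumed to vary like the other group. A second averaging, which leaves out probes with a missing spot where another probe is complete, was added after seeing the data, as were the counts without Smoc2 and Tgfbi and the lower limit for Postn with an array left out. Computations used R 4.3.3 with limma 3.58.1, and Python 3.11.15 with pandas 2.3.3 and matplotlib 3.10.9.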

Additional observations from a re-analysis of the deposited data

Results flagged for a closer look

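For 6 of the 10 genes the effect against WT differed between the knockouts by the direct limma comparison of their arrays. The differences (TIAR KO minus TIA1 KO on the log2 scale, 2 arrays each) were -1.64 for Thbs1, -4.13 for Thbs2, 1.33 for Thbs3, -4.77 for Spp1, -3.14 for Smoc2 and 2.84 for Tgfbi. Smoc2 and Tgfbi had been chosen for their rise on these arrays. Of the other 8 genes 1 was called higher and 3 lower, beside 1.68% and 1.63% of all probes. None of the 6 was called with the replicate block or without either TIAR KO array. On the processed intensities Thbs1, Thbs3 and Tgfbi were not called. For Thbs1 the difference became -0.53 under common-median scaling and was not called, and Thbs3 was not called in the authors' log2 table (adjusted p = 0.0531) or with a normexp offset of 16 (adjusted p = 0.055). Smoc2, Thbs2 and Thbs1 were higher in TIA1 KO MEF on each array, and Tgfbi and Thbs3 in TIAR KO MEF. The share of all probes that separate so was not counted. Spp1 was called lower in TIAR KO MEF alone. Strain, cell line and slide row differ between these arrays as genotype does, and cannot be told apart from it.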

How the results depend on the processing

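Over the 10 genes and 3 comparisons, 370 alternative values kept direction and side of the threshold, 53 lost a call, 12 gained one and 8 changed sign; the cause was not tested except for Sparc. The sign changes were Thbs3 in TIA1 KO MEF with all probes averaged (0.053), Sparc under the same averaging (-0.046 in TIA1 KO, -0.29 in TIAR KO and -0.24 between the knockouts), Thbs4 in TIAR KO MEF on the processed intensities (-0.17), and, under common-median scaling, Sparc (-0.44) and Spp1 (-1.05) in TIA1 KO MEF and Thbs4 between the knockouts (0.11). The Sparc averages mix 2 probes on 5 arrays with the bright probe alone on WT replicate 1, where the dim probe's spot is missing. A second averaging rule, chosen after these values were seen, left such a probe out where another was complete: Sparc then gave 1.03 in TIA1 KO MEF, where it was called, and 1.10 in TIAR KO MEF, 28 of 30 values kept direction and side, and Thbs3 stayed at 0.053. On the processed intensities 0 members, 0 probes and 0 other matricellular genes were called in TIA1 KO MEF by limma (8, 27765 and 18 at an unadjusted p under 0.05), 5 members in TIAR KO MEF and 3 members between the knockouts. Probes called numbered 1959 in TIA1 KO MEF and 1845 between the knockouts; these became 15801 and 8307 under common-median scaling (1876 and 7242 higher, 13925 and 1065 lower), 3931 and 3167 with all 3 groups in 1 fit, and 2870 between the knockouts with dim probes removed. The tally of alternative values above and all counts of members here include Smoc2 and Tgfbi, which were chosen for their rise. Against WT the part of these genes in them is a description and no test. Counts over the other 8 genes stand in the Results. Leaving out 1 array moved members called in TIA1 KO MEF between 0 and 6, in TIAR KO MEF between 5 and 6 and between the knockouts between 0 and 6; probes called in TIA1 KO MEF between 0 and 10727 and between the knockouts between 0 and 10195; and other matricellular genes called between 0 and 8 in TIA1 KO and between 4 and 6 in TIAR KO MEF. The zeros came without either WT array for TIA1 KO and without either TIAR KO array between the knockouts. The TIAR KO call of Thbs3 was lost under 8 alternatives and that of Sparc under 5 and with its probes averaged.

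Replicate numbers were shared between groups, but like-numbered arrays showed no common deviation (correlations of 0.078, 0.029 and -0.072), so they were not taken as pairs. With the replicate block limma called 522 probes in TIA1 KO MEF, and 0 probes and 0 members between the knockouts (10663 and 8 at an unadjusted p under 0.05).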

Other observations

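The Spp1 probe lies 101 kb from that of Mepe, 129 kb from that of Ibsp, 226 kb from that of Dmp1, 261 kb from that of Dspp and 360 kb from that of Sparcl1 on chromosome 5 (mm9), all of them genes for acidic secreted proteins. Sparcl1 was at least 5.84-fold higher in TIA1 KO MEF (limma adjusted p = 0.0132, 1 of the 2 TIA1 KO arrays well above background), where Spp1 was not called. In TIAR KO MEF, where Spp1 fell, Sparcl1 was at least 7.03-fold higher (limma adjusted p = 0.000431). Ibsp and Dmp1 were not well above background on any array. Mepe was well above background on 5 of the 6 arrays and Dspp on 1, and neither was called in any comparison. The relation of position to these values was not tested.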
